A study of Mus musculus with 9 samples.

Results

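The milk protein genes are the genes whose products fill milk when the mammary gland lactates. They were taken as the rows of the table of read counts whose Ensembl identifier maps to Csn1s1, Csn1s2a, Csn1s2b, Csn2, Csn3, Wap, Lalba, Glycam1 or Btn1a1, which gave 9 genes of the 35275 in the table. The counts come from RNAseq of 9 mammary gland tumors of Brca1Co/Co;MMTV-Cre;p53+/- mice, 3 given saline, 3 given free Talazoparib by vein (i.v. TLZ) and 3 given a nano-liposome form of the same drug (NanoTLZ). Talazoparib blocks PARP, an enzyme of DNA break repair on which cells without Brca1 depend. Saline, free drug and NanoTLZ were all given by vein, in 5 doses at 3 doses a week, from a tumor diameter of 4 to 5 mm. Each drug dose was 0.33 mg/kg. The comparison asks what each form of the drug does to gene expression in a tumor that arose by itself. All 9 mice, saline controls included, carried the floxed Brca1 alleles, the MMTV promoter that drives Cre in mammary epithelium, and 1 lost copy of p53. Mouse age was not given. The study's description puts the tumors of a group in separate mice, the labels add no animal numbers, and the errors measure the spread between tumors. No group received empty liposomes, so the liposome and the drug in it cannot be told apart in the NanoTLZ tumors.

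In the lactating gland, prolactin binds its receptor on alveolar cells, the kinase JAK2 phosphorylates STAT5, and STAT5 enters the nucleus and binds the promoters of milk protein genes together with the transcription factor ELF5 and the glucocorticoid receptor. The caseins form the micelles that carry calcium and amino acids, the whey proteins stay in solution, and butyrophilin coats the fat droplet as it leaves the cell. Milk protein mRNA is a standard marker of alveolar secretory differentiation, and some mammary tumors keep part of it.

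The 5 casein genes lie together on chromosome 5 between positions 87666208 and 87932665 of GRCm38, a span of 266458 bases. Of 4 other genes of the table within this span, Gm7337 and Prr27 had no count in any tumor, Odam had 1 count in each of 3 tumors, and 1700066N21Rik had 8 counts in all tumors together. The last of these runs antisense to Csn3. The strand setting of the counting is not given in the sources used here, so reads of this pair could have been exchanged. The whey genes lie on chromosome 11 (Wap) and chromosome 15 (Lalba and Glycam1), and Btn1a1 lies on chromosome 13.

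The letters TTCNNNGAA, which STAT5 binds and which read the same on both strands, were searched in the RefSeq promoter windows of GRCm38.p6, each of 250 bases before and 50 bases after a gene's start. Windows were found for 6 members, and 4 of these 6 held the motif. Among all 32851 promoter windows, 8.30% held it. The windows of Csn1s1, Csn2 and Glycam1 have it 100 to 92, 93 to 85 and 145 to 137 bases before the RefSeq start. That of Csn1s2a has it 21 to 29 bases after the RefSeq start. The placement in Csn1s2a and Csn2 depends on the annotation. GENCODE starts Csn1s2a at 87774567, so its match lies before that start. For Csn2, a GENCODE exon from 87699379 to 87699630 covers the match. The 4 matches are shown with 10 bases on either side, 5′ to 3′ on the strand of the gene and with the motif in capitals, because they let the reader compare the letters that caseins and Glycam1 share.
Csn1s1, chr5:87666098-87666126, plus strand: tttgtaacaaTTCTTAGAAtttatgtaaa
Csn1s2a, chr5:87774460-87774488, plus strand: ttatagtgctTTCTTAGAAttacaatgac
Csn2, chr5:87699500-87699528, minus strand: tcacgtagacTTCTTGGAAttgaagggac
Glycam1, chr15:103565208-103565236, minus strand: gccaactcatTTCCCAGAAacaccaattc

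The motif is identical in Csn1s1 and Csn1s2a. The windows of Wap and Lalba did not hold these letters, which says nothing about STAT5 elsewhere at these genes. The letters TATAAA were in none of the 6 windows and in 13.6% of all windows. The letters TTGGC, searched on both strands as a core of NFI sites, were in 4 of 6 member windows (Csn2, Wap, Lalba and Glycam1) and in 46.7% of all windows, and no match overlapped a TTCNNNGAA match. The 200 bases before the start are printed for Csn1s1, the member with the most counts over all tumors, and for Wap, the member with the fewest, with the TTCNNNGAA match in capitals.
Csn1s1, chr5:87666008-87666207, plus strand: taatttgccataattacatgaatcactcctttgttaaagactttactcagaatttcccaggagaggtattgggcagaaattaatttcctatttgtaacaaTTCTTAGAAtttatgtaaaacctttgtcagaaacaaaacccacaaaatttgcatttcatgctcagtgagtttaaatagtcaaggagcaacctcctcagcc
Wap, chr11:6638650-6638849, minus strand: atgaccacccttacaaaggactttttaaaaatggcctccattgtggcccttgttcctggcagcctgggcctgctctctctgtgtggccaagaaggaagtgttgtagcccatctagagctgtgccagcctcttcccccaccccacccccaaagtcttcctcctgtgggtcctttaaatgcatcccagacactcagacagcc

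Total counts per tumor ranged from 17538380 to 21194980. One saline tumor, A3688, stood apart. Its basal keratin Krt5 was at 1849 CPM (counts scaled to a common library size) against at most 72.9 in the other 8 tumors, and Trp63, a basal transcription factor, was at 131 against at most 28.5. The luminal keratin Krt19 was at 31.2 against at least 173 elsewhere, and the summed skeletal muscle markers were at 693 CPM against 185 in saline tumor A3685 and 3.01 to 31.1 in the other 7 tumors. The other luminal markers did not all go with Krt19. Cdh1 was also lowest in A3688, at 359 CPM against at least 424 elsewhere, but Cldn3 was highest there, at 838 against at most 656. Krt8, Krt18, Epcam and Cldn4 of A3688 lay within the range of the other tumors. The luminal genes Krt8, Krt18, Epcam and Cdh1 were at 359 CPM or more in every tumor, A3688 included. The fitted differences are therefore given with and without A3688.

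Milk protein genes took a small share of the counts of every tumor, and the share differed most among the saline tumors. They made up 0.282% of all counts in saline tumor A3673, 0.174% of those in A3685 and 0.000727% of those in A3688, the last being 154 counts of 21194980. The Wilson 95% intervals were 0.280% to 0.285%, 0.172% to 0.175% and 0.000621% to 0.000851%, and cover counting error only. The i.v. TLZ tumors B3638, B3684 and B3700 had 0.0265%, 0.0704% and 0.0277%, and the NanoTLZ tumors C3519, C3669 and C3698 had 0.0358%, 0.0302% and 0.0633%. The treated tumors thus fell between the saline tumors, below A3673 and A3685 and above A3688. The group means were 0.152% ± 0.142 (SD, n = 3) for saline, 0.0415% ± 0.0250 (SD, n = 3) for i.v. TLZ and 0.0431% ± 0.0177 (SD, n = 3) for NanoTLZ. In a bulk tumor, fewer milk-expressing cells and less milk mRNA per cell cannot be told apart.

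**Figure D1:**
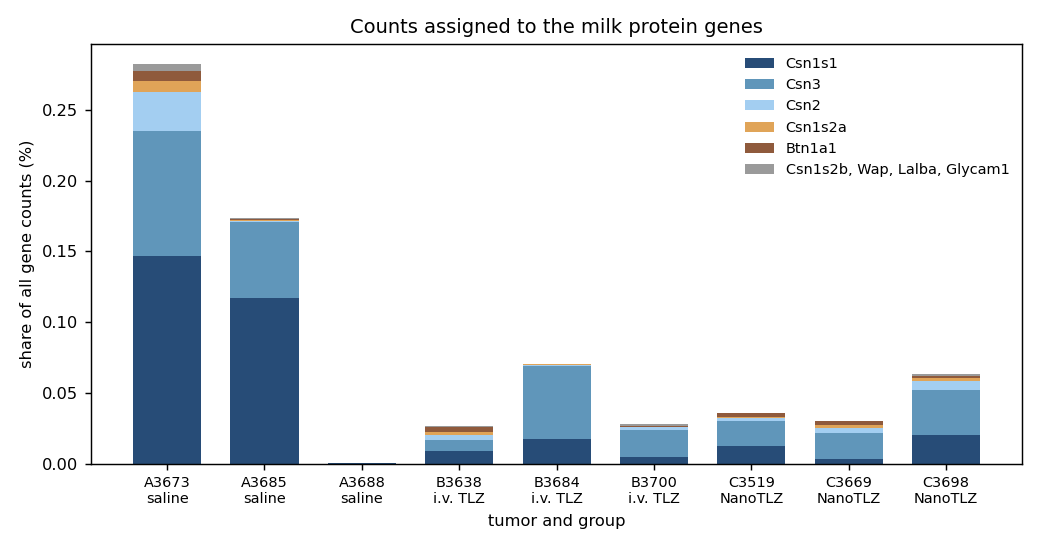
Share of all gene counts (%, vertical axis) assigned to the milk protein genes in each of the 9 tumors, with 1 bar a tumor and 1 colour a gene. Saline tumors A3673 and A3685 have the tallest bars, at 0.282% and 0.174%, saline tumor A3688 has almost none, and the 6 treated tumors lie between 0.0265% and 0.0704%.

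Csn1s1, which encodes alpha-S1-casein, was at 1659 and 1176 CPM in saline tumors A3673 and A3685 and at 1.01 CPM in A3688. It was at 87.1, 175 and 43.6 CPM in B3638, B3684 and B3700 and at 125, 32.5 and 194 CPM in C3519, C3669 and C3698. All 6 treated tumors were below A3673 and A3685 and above A3688, so the groups overlapped only through A3688. With all 9 tumors, edgeR's quasi-likelihood test gave a log2 fold change of -3.21 ± 1.55 (SE) for i.v. TLZ (9.27-fold lower, adjusted p = 0.498) and -3.01 ± 1.53 for NanoTLZ (8.07-fold lower, adjusted p = 0.573). Without A3688 the values were -3.78 ± 0.75 and -3.57 ± 0.74, with adjusted p of 0.341 and 0.566 from edgeR and 4.01e-05 and 0.000205 from DESeq2. Over all the fits run, the adjusted p of Csn1s1 ran from 4.01e-05 to 0.784 for i.v. TLZ and from 0.000205 to 0.901 for NanoTLZ, and it was under 0.05 only in the DESeq2 fit without A3688.

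Csn3 encodes kappa-casein, which covers the micelle surface and keeps it from clotting. It was at 999, 534 and 4.82 CPM in the saline tumors A3673, A3685 and A3688. It was at 76.2, 527 and 189 CPM in the i.v. TLZ tumors and at 171, 175 and 305 CPM in the NanoTLZ tumors, in the same order as above. B3684 lay just below A3685, and all treated tumors were above A3688. The edgeR log2 fold changes were -0.96 ± 1.20 for i.v. TLZ (adjusted p = 0.805) and -1.24 ± 1.21 for NanoTLZ (adjusted p = 0.753). Without A3688 they were -1.51 ± 0.68 and -1.79 ± 0.68, with adjusted p of 0.525 and 0.735.

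Csn2, the beta-casein gene, was high in 1 saline tumor only. Its level was 307 CPM in A3673 but 10.6 CPM in A3685 and 0.459 CPM in A3688, while the i.v. TLZ tumors had 37.8, 9.79 and 22.2 and the NanoTLZ tumors 19.0, 35.7 and 61.4. A3685 was thus lower than 5 of the 6 treated tumors although its Csn1s1 was above that of all 6. The edgeR log2 fold changes were -2.19 ± 1.49 for i.v. TLZ (adjusted p = 0.609) and -1.45 ± 1.45 for NanoTLZ (adjusted p = 0.761). Without A3688 they were -2.76 ± 1.05 and -2.00 ± 1.04, with adjusted p of 0.496 and 0.760.

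Csn1s2a, another calcium-binding casein, followed Csn2. It was at 86.9, 8.39 and 0 CPM in the saline tumors, at 19.9, 3.23 and 1.73 CPM in the i.v. TLZ tumors and at 4.14, 16.3 and 23.2 CPM in the NanoTLZ tumors. The groups overlapped, and A3688 was the only tumor with no count. The edgeR log2 fold changes were -1.94 ± 1.63 (adjusted p = 0.687) and -1.12 ± 1.59 (adjusted p = 0.837) for i.v. TLZ and NanoTLZ, and without A3688 they were -2.51 ± 1.15 and -1.67 ± 1.14 (adjusted p = 0.532 and 0.789). Csn1s2b, its neighbour, had 54 counts in all tumors together, of which 36 were in NanoTLZ tumor C3669 at 1.96 CPM, and was removed by the low-count filter. No other tumor was above 0.458 CPM.

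Wap encodes whey acidic protein, a major whey protein of rodents and a usual marker of late pregnancy and lactation. It was close to absent, with 17 counts in all 9 tumors together, at most 6 in a tumor (B3700, 0.325 CPM) and 0 in A3688, C3519 and C3669. A count of 0 allows up to 3 counts, or 0.138, 0.144 and 0.164 CPM in these 3 tumors. Wap did not pass the filter and has no test in the 9-tumor edgeR fit. With no filter on low counts, edgeR gave log2 differences of 1.77 ± 1.40 for i.v. TLZ and -0.0024 ± 3.61 for NanoTLZ (adjusted p = 0.728 and 1.0), so a difference was not detectable at this depth.

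Lalba encodes alpha-lactalbumin, the subunit that turns a Golgi galactosyltransferase into lactose synthase. A3673 had 28.6 CPM, A3685 only 0.763 and A3688 no count. The i.v. TLZ tumors had 0.0969, 0.219 and 0.216 CPM, from 2, 4 and 4 counts, and the NanoTLZ tumors had 0.481, 1.42 and 1.29 CPM, from 10, 26 and 25 counts. A3673 alone was above every treated tumor, and all 3 NanoTLZ tumors were above all 3 i.v. TLZ tumors. The edgeR log2 fold changes were -5.74 ± 1.89 for i.v. TLZ (adjusted p = 0.436) and -3.19 ± 1.62 for NanoTLZ (adjusted p = 0.573), and without A3673 they were -1.08 and 1.49. Without A3688 they were -6.31 ± 1.29 and -3.74 ± 1.12, with adjusted p of 0.341 and 0.639 from edgeR and 5.31e-06 and 0.0275 from DESeq2. Over all the fits run, the adjusted p of Lalba ran from 5.31e-06 to 0.769 for i.v. TLZ and from 0.0275 to 0.901 for NanoTLZ. In the direct comparison Lalba was higher in NanoTLZ than in i.v. TLZ tumors by 2.55 ± 1.74 on the log2 scale (edgeR adjusted p = 0.9999), and it was the 1 tested member of 7 whose groups did not overlap in that direction, as 3.2% of all genes tested.

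Glycam1 encodes a mucin-like protein that is secreted into milk and also made by the high endothelial venules of lymph nodes. It was at 28.4, 8.29 and 0 CPM in the saline tumors, at 2.57, 0 and 9.85 CPM in the i.v. TLZ tumors and at 0.770, 0.109 and 13.9 CPM in the NanoTLZ tumors. High and low tumors occurred in all 3 groups. The log2 fold changes of -1.56 ± 1.99 and -1.31 ± 1.97 were smaller than their errors (edgeR, adjusted p = 0.807 and 0.849), and without A3688 they were -2.14 ± 1.76 and -1.87 ± 1.75 (adjusted p = 0.720 and 0.824). Chst4, a sulfotransferase that defines these venules, had counts in 1 tumor only, at 0.0477 CPM in A3685, and the 10 lymph node and venule markers summed to 1.19 to 19.3 CPM in saline and 6.89 to 27.6 CPM in treated tumors. The lowest 2 sums, 1.19 and 2.06 CPM, were in A3688, with no Glycam1 count, and in A3673, with the most Glycam1.

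Btn1a1 encodes butyrophilin, the main protein of the milk fat globule membrane. It was at 81.6, 4.86 and 0.780 CPM in the saline tumors, at 40.7, 3.23 and 8.39 CPM in the i.v. TLZ tumors and at 30.0, 26.3 and 12.2 CPM in the NanoTLZ tumors. All 3 NanoTLZ tumors were above 2 of the 3 saline tumors and below the other. The edgeR log2 fold changes were -0.73 ± 1.32 (adjusted p = 0.872) and -0.35 ± 1.31 (adjusted p = 0.949), and -1.30 ± 1.12 and -0.88 ± 1.12 without A3688 (adjusted p = 0.733 and 0.873).

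**Figure D2:**
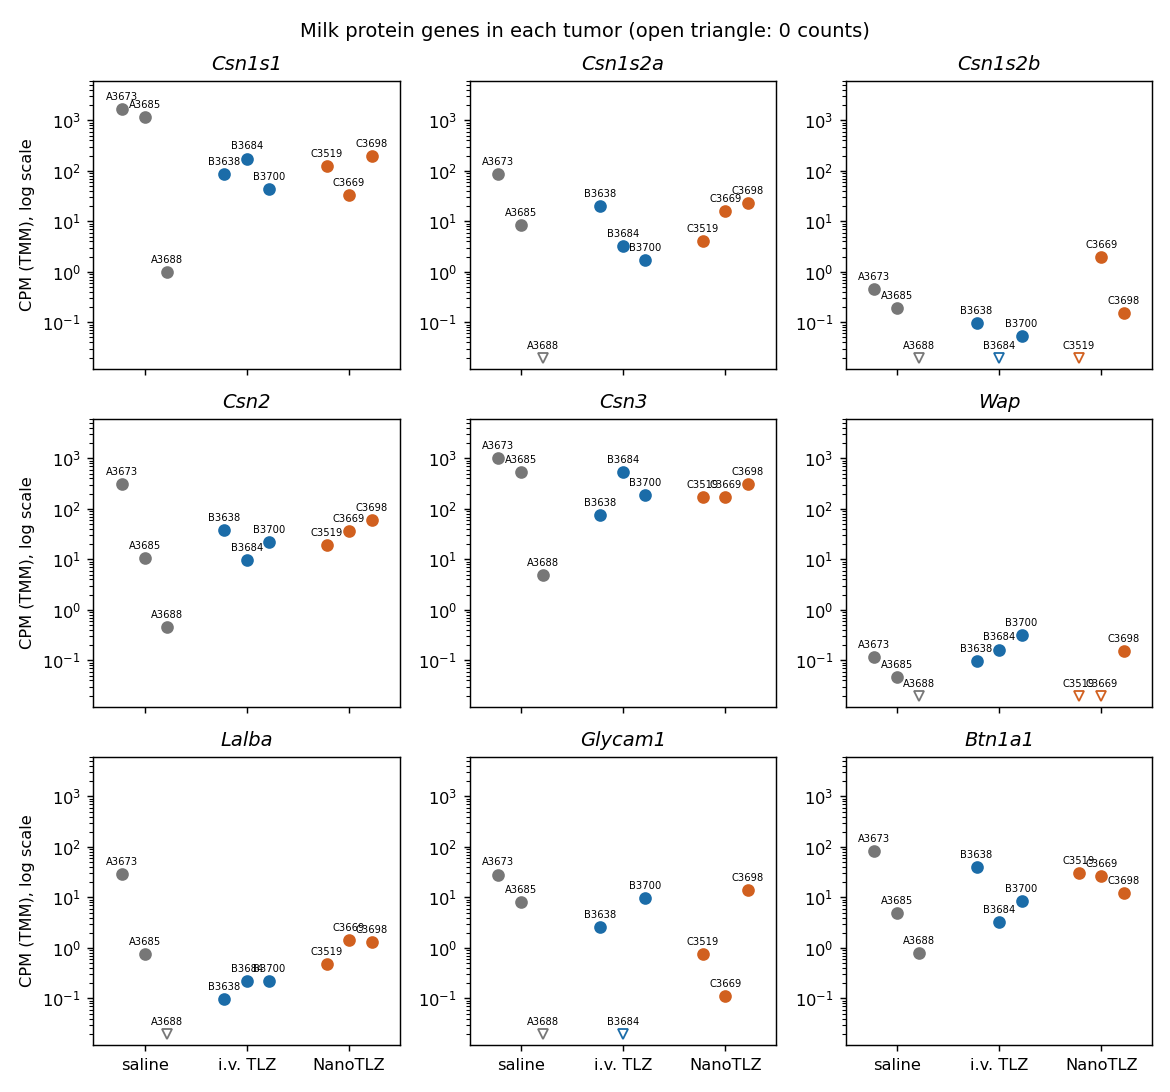
CPM of each milk protein gene (vertical log axis, TMM-scaled) in each tumor, by group, with open triangles for tumors with 0 counts. Csn1s1 and Csn3 are high in saline tumors A3673 and A3685, the other genes are highest in A3673 apart from Csn1s2b and Wap, and A3688 is lowest or at 0 for each gene.

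A3688 was below all 8 other tumors for 5 members, Csn1s1, Csn1s2a, Csn2, Csn3 and Btn1a1. The share of all genes that were lowest in A3688 was not counted, so these 5 cannot be set against it. Genes outside the members were also lowest in A3688, such as Jak2, Mfge8 and Lcn2, and others were highest, such as Tfap2c, Srebf1 and Wfdc18. The other saline tumors exceeded A3688 by 1165-fold and 1643-fold for Csn1s1, by 111-fold and 207-fold for Csn3 and by 23.2-fold and 669-fold for Csn2. Csn1s2a was at least 60.9-fold and at least 631-fold higher in them, taking 3 counts as the floor for A3688. The 22 Csn1s1 counts of A3688 have an exact Poisson interval of 13.8 to 33.3, which covers counting error only. A3688 had the highest Krt5, Krt17, Trp63, Oxtr and skeletal muscle markers of the 9 tumors, but not the highest Krt14, Acta2 or Myh11. The part of the cells behind these markers in the low milk mRNA was not tested.

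The mixture of milk mRNAs also differed between tumors. Per length of the longest coding transcript (RPKM), Csn1s1 was the most abundant member in A3673, A3685 and B3638, and Csn3 was in the other 6 tumors. The ratio of Csn1s1 to Csn3 was 1.88 and 2.49 in saline tumors A3673 and A3685, but 0.237 for A3688. It was 1.29, 0.376 and 0.261 in the i.v. TLZ tumors and 0.825, 0.210 and 0.719 in the NanoTLZ tumors. The 2 highest ratios were thus those of the saline tumors with the most milk mRNA, and A3688 lay with the treated tumors. The order of Csn1s1 and Csn3 in B3638 turned when the length of all annotated exons was used instead.

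The ratio of Csn1s1 to Csn2 per length set A3685 apart, with 104 against 5.09 in A3673 and 2.07 in A3688. Among treated tumors it was 16.9 in B3684 and 0.857 to 6.18 in the other 5. B3684 and A3685 were alike in Csn3 and Csn2, at 527 and 534 CPM and at 9.79 and 10.6 CPM, but not in Csn1s1, at 175 and 1176 CPM, or Glycam1, at 0 and 8.29 CPM. Csn3 took 73.3% of the milk counts of B3684, 68.6% of those of B3700 and 28.8% of those of B3638, the third i.v. TLZ tumor.

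**Figure D3:**
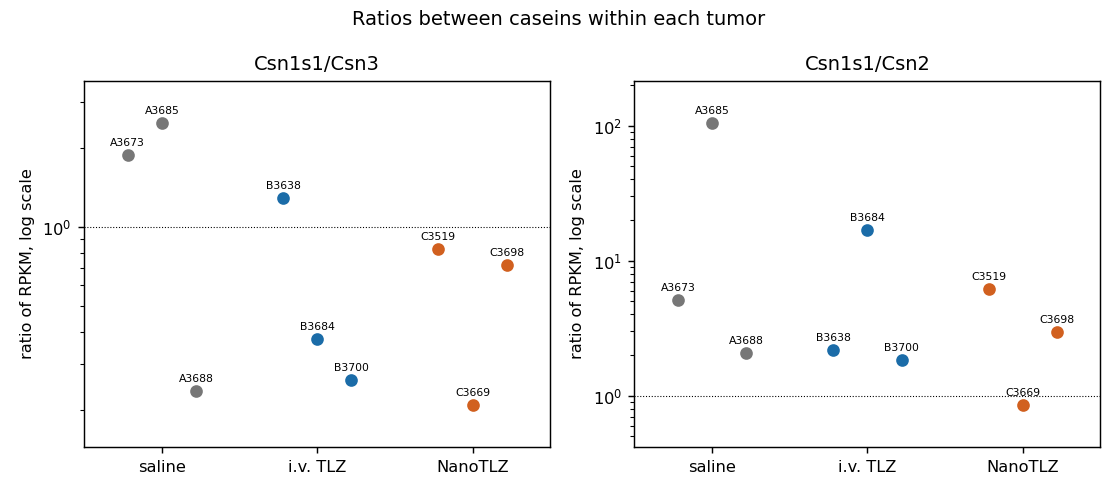
Ratio of Csn1s1 to Csn3 (left) and of Csn1s1 to Csn2 (right), both from RPKM on a log axis, in each tumor by group, with the dotted line at equal levels. A3673 and A3685 have the highest ratios to Csn3, at 1.88 and 2.49, and A3685 alone exceeds 100 in the ratio to Csn2.

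Log2 CPM of the 7 members that passed the filter varied together across tumors. Over 9 tumors, Pearson's r of the 21 pairs ran from 0.51 to 0.94 with a median of 0.69. Csn2 and Csn1s2a were the closest pair, at 0.94, and Csn1s1 and Csn3 followed near it, at 0.93. Without A3688, r ran from -0.19 to 0.84 with a median of 0.51. Csn1s1 with Csn3 was then at 0.80 and Csn2 with Csn1s2a at 0.84, while Csn3 with Btn1a1 was at -0.19. These values describe 9 libraries that share each tumor's depth and cell mixture.

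Over the members as a group, edgeR called none of the 7 tested genes in i.v. TLZ against saline at an adjusted p under 0.05, where 0.0% of all 15821 genes tested were called. None was called in NanoTLZ against saline, where 0.00632% were. At an unadjusted p under 0.05, 1 member was lower with i.v. TLZ (Lalba), beside 5.47% of all genes, and 0 were lower with NanoTLZ, beside 5.49%. DESeq2 on all 9 tumors called 0 of the 7 and 6 members to which it gave an adjusted p in these comparisons, with 1 and 0 members at an unadjusted p under 0.05. Over all genes with an adjusted p, it called 100 higher and 94 lower of 17367 for i.v. TLZ. For NanoTLZ it called 57 higher and 53 lower of 15449. At an unadjusted p under 0.05 it had 2030 and 1823 genes. DESeq2 gave Lalba no p in any comparison of this fit, so Lalba could not be called there. All 7 fitted log2 fold changes were below 0 in both comparisons, with medians of -1.94 for i.v. TLZ and -1.31 for NanoTLZ, against medians of -0.03 and -0.09 over all genes. The 2 comparisons share the same 3 saline tumors, so the second is not a repeat of the first.

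Taking both treatments as 1 arm of 6 tumors, edgeR called 0 of 7 members, beside 0.019% of all genes, and DESeq2 called 0 of the 7 members to which it gave an adjusted p, Lalba again being without one. At an unadjusted p under 0.05, Lalba and Csn1s1 were lower with edgeR, beside 8.29% of all genes, and DESeq2 had 1 member. Over all genes with an adjusted p, DESeq2 called 126 higher and 147 lower of 17851, with 2464 at an unadjusted p under 0.05. Lalba differed by -4.47 ± 1.33 and Csn1s1 by -3.11 ± 1.20 on the log2 scale (edgeR adjusted p = 0.284 and 0.337). In 0 of 7 members were all 6 treated tumors below all 3 saline tumors, which held for 2.66% of all genes.

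Of the saline tumors, A3688 had the lowest level of each tested member, so leaving it out had to raise the saline level. The larger differences are thus no separate support for lower levels with treatment. Without A3688 the differences grew and their errors shrank, but edgeR still called 0 of 7 members for both treatments against saline, beside 0.0186% of all genes. At an unadjusted p under 0.05 it had 4 members lower, Csn3, Lalba, Csn2 and Csn1s1, beside 4.87% of all genes. For i.v. TLZ alone it had 3 (Lalba, Csn2 and Csn1s1), beside 4.19%, and for NanoTLZ alone 3 (Csn3, Lalba and Csn1s1), beside 3.26%. DESeq2 without A3688 called Lalba and Csn1s1 lower of 8 members with an adjusted p, beside 0.541% of all genes for both treatments together, and the same 2 genes for i.v. TLZ (0.573% of all genes) and NanoTLZ (0.353%). Csn1s1 and Csn3 were lower in all 6 treated tumors than in A3673 and A3685, as were 5.26% of all genes, and these 2 with Lalba were lower in all 3 i.v. TLZ tumors, as were 9.25%.

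Without A3673 the picture turned for most members. Against A3685 and A3688 alone, both treatments together gave higher Btn1a1 by 2.83 ± 1.11 and higher Csn2 by 2.44 ± 1.06 on the log2 scale (edgeR adjusted p = 0.357 and 0.385). These 2 of 7 members were higher at an unadjusted p under 0.05, beside 4.33% of all genes. Csn1s2a, Lalba and Glycam1 had positive values of 1.39, 0.21 and 0.13, while Csn1s1 and Csn3 stayed below 0 at -2.42 and -0.16. When each of the 9 tumors was left out in turn, Csn1s1 ran from -3.86 to -2.53 for i.v. TLZ and from -3.57 to -2.31 for NanoTLZ, and of the 7 members it and Csn3 kept their direction in both comparisons.

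**Figure D4:**
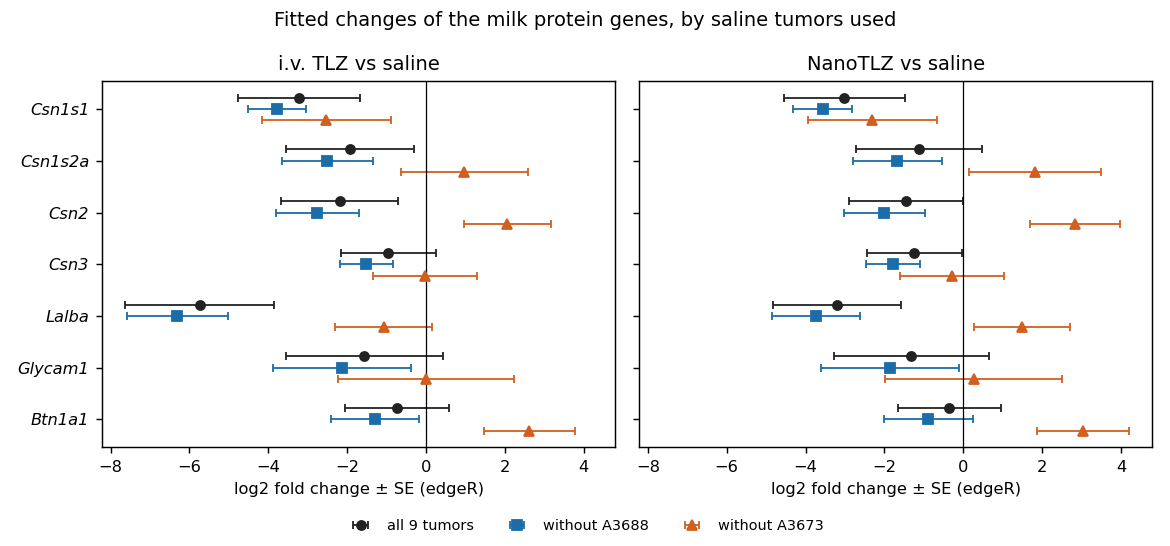
Log2 fold change with its standard error (horizontal axis, edgeR) of the 7 members tested, for i.v. TLZ (left) and NanoTLZ (right) against saline, with all 9 tumors (circles), without saline tumor A3688 (squares) and without saline tumor A3673 (triangles). Csn1s1 stays below 0 in all 3 fits, while Csn2, Csn1s2a and Btn1a1 move from below 0 to above 0 without A3673.

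The 2 forms of the drug were compared at the same dose and schedule. Of 7 members, edgeR called 0 in NanoTLZ against i.v. TLZ, beside 0.0% of all genes, with 0 members at an unadjusted p under 0.05, beside 1.68% of all genes. DESeq2 on all 9 tumors also called 0 of the 8 members with an adjusted p, with 1 at an unadjusted p under 0.05 (Csn1s2b) and no p for Lalba. Over all genes with an adjusted p, it called 1 higher and 2 lower of 25112, with 435 at an unadjusted p under 0.05. Apart from Lalba, the edgeR log2 differences ran from -0.28 ± 1.19 (Csn3) to 0.81 ± 1.59 (Csn1s2a). These errors take in the spread of the saline tumors. With errors of this size, a difference of several-fold in either direction between the 2 forms was not detectable in the 9-tumor fit. Fitted on the treated tumors alone, DESeq2 had errors of 0.62 (Csn1s1), 0.55 (Csn2), 0.59 (Csn3), 0.80 (Csn1s2a), 0.72 (Btn1a1), 0.92 (Lalba), 1.75 (Csn1s2b) and 2.35 (Glycam1). It called 0 of 8 members, beside 10 higher and 11 lower of 16596 genes. Lalba (adjusted p = 0.625) and Csn1s2b had an unadjusted p under 0.05, as had 737 genes.

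Genes that act upstream of milk protein genes were examined as a list of 18 regulators, all in the table and 17 tested. None was called by edgeR in any of the comparisons. Against saline, 4 were lower at an unadjusted p under 0.05 with i.v. TLZ and 4 with NanoTLZ, beside 5.47% and 5.49% of all genes. The medians of the list were -0.41 and -0.18 on the log2 scale, against -0.03 and -0.09 over all genes. Without A3688, 6 and 3 were lower, beside 4.19% and 3.26% of all genes, and the medians were -0.63 and -0.39, against 0.05 and 0.01. Elf5, the transcription factor of the alveolar lineage, was at 104, 67.2 and 66.8 CPM in the saline tumors, at 35.8, 31.1 and 40.7 in the i.v. TLZ tumors and at 52.9, 36.2 and 40.4 in the NanoTLZ tumors. All treated tumors lay below all saline tumors, A3688 included, which held for 2.66% of all genes tested. The log2 difference of Elf5 for both treatments from saline was -1.01 ± 0.24 (edgeR adjusted p = 0.271), or -1.10 ± 0.25 without A3688 (adjusted p = 0.287).

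Ehf, a related factor of the same ETS family, was at 265 to 327 CPM in saline and at 119 to 201 CPM in treated tumors. The groups again did not overlap, as in 2.66% of all genes tested (-0.93 ± 0.22, edgeR adjusted p = 0.271, and -1.0 ± 0.23 without A3688, adjusted p = 0.300). Prlr, the prolactin receptor, was at 155 CPM in A3673, the tumor with the most of 7 milk mRNAs, and at 20.1 and 52.8 CPM in A3685 and A3688. Treated tumors had 18.2 to 32.3 CPM of Prlr, so A3685, with high Csn1s1, was within their range and A3688, with almost no milk mRNA, was above it. Both treatments differed from saline by -1.57 ± 0.49 (edgeR adjusted p = 0.284), or -1.75 ± 0.54 without A3688 (adjusted p = 0.428).

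Stat5a, the STAT5 gene most tied to lactation, was at 104, 107 and 22.8 CPM in A3673, A3685 and A3688. It was at 49.0, 35.1 and 93.8 CPM in the i.v. TLZ tumors and at 35.0, 64.2 and 67.2 CPM in the NanoTLZ tumors, and A3688 was the lowest of the 9. Stat5b, its near copy, was at 50.6 to 101 CPM in saline and at 31.1 to 109 CPM in treated tumors. Socs2, a STAT5 target that dampens the prolactin signal, was lowest in A3688 at 22.9 CPM, against 47.4 to 133 elsewhere. Of the same list, Socs3 was also lowest in A3688, at 40.0 CPM, but Cish was not, at 5.64 CPM against 5.30 in B3684. Socs2, Socs3 and Cish were named after their values were seen.

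**Figure D5:**
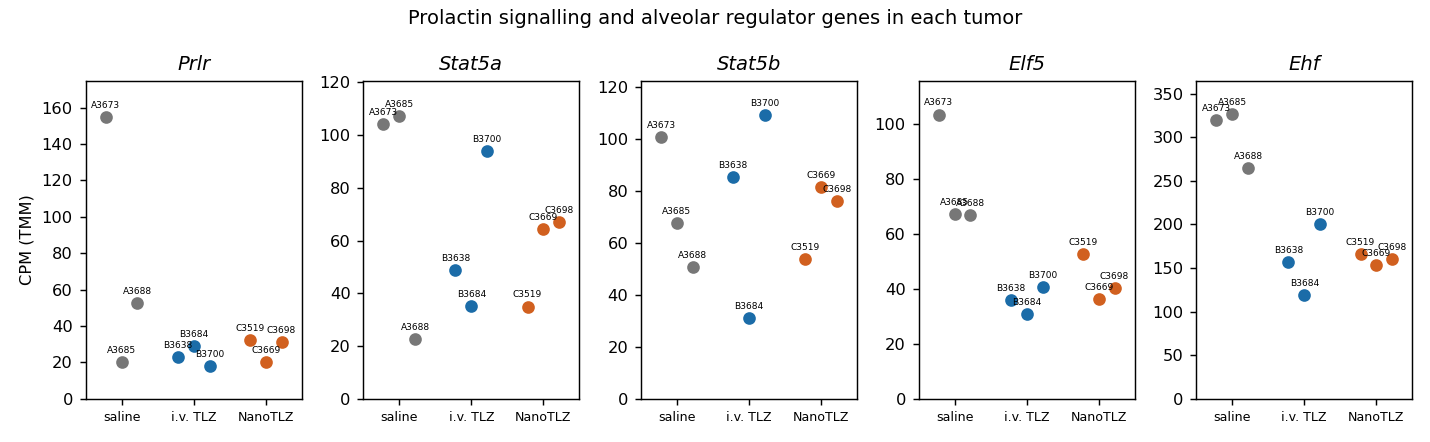
CPM (vertical axis, TMM-scaled, from 0) of Prlr, Stat5a, Stat5b, Elf5 and Ehf in each tumor by group. Elf5 and Ehf are higher in all 3 saline tumors than in all 6 treated tumors, as are 2.66% of all genes tested. Prlr is high in A3673 only and Stat5a is lowest in A3688.

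Genes for the other parts of milk were examined as 3 further lists. None of 12 tested milk fat genes, 11 lactose and transport genes or 11 other secreted milk proteins was called by edgeR. For both treatments against saline, their median log2 fold changes were -0.24, -0.09 and 0.23, beside -1.53 for the 7 milk protein genes and -0.06 for all genes. Without A3688 they were -0.26, -0.26 and -0.04, beside -2.09 for the milk protein genes and 0.03 for all genes, so the median of the other secreted proteins changed sign. Dgat1, which makes triglyceride, was at 41.7 to 59.7 CPM in saline and 54.3 to 120 CPM in treated tumors (0.66 ± 0.29, edgeR adjusted p = 0.369). Srebf1, which drives lipid synthesis, and Gpam, which starts glycerolipid synthesis, had log2 differences of -0.44 ± 0.25 and -0.57 ± 0.34 (edgeR adjusted p = 0.474 and 0.495).

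Ugp2, which makes the UDP-glucose used for lactose, differed by -1.02 ± 0.35 (edgeR adjusted p = 0.296) and Slc30a2, the zinc exporter of milk, by -1.04 ± 0.72 (adjusted p = 0.546). Atp2b2, the calcium pump of the secreting membrane, was at most 2.60 CPM in any tumor (2.77 ± 1.07, edgeR adjusted p = 0.338). Pigr, which carries IgA into milk, was at 121, 21.3 and 1.74 CPM in the saline tumors and at 0.437 to 12.4 CPM in treated tumors, which placed A3688 among the treated tumors (-3.14 ± 0.98, edgeR adjusted p = 0.284). Saa1, an acute phase protein, and Cel, the lipase of milk, were at most 0.477 and 0.321 CPM in saline tumors and reached 13.7 and 0.820 CPM in treated ones (edgeR adjusted p = 0.329 and 0.429). Without A3688 these genes kept their directions: the log2 differences were 0.61 (Dgat1), -0.13 (Srebf1), -0.50 (Gpam), -1.04 (Ugp2), -1.56 (Slc30a2), 2.74 (Atp2b2), -3.68 (Pigr), 2.34 (Saa1) and 3.10 (Cel), with edgeR adjusted p from 0.245 to 0.877.

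Outside the lists, the genes whose log2 CPM followed the mean standardized level of the 7 tested members most closely over the 9 tumors were Klf3, Snap23, Tmppe, Nhlrc3, Cp, Cnnm2, Atmin, Litaf, Slc39a14 and Tgm2, with Pearson's r of 0.97 to 0.96. Cp, which encodes the copper protein ceruloplasmin, was at 3192 CPM in A3673 and 199 CPM in A3688 and at 618 to 2226 CPM in the other 7 tumors. Without A3688 their r was 0.87 to 0.95. Which genes ranked highest depended on single tumors: of the 10, 1 stayed among the top 10 without A3673, 1 without A3688, 3 without B3700, 4 without B3684 and 6 to 8 without each of the other 5.

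Other cell types that could carry milk or milk-like mRNA were checked by their markers. The 7 luminal epithelial markers summed to 4227 to 7827 CPM in saline and 3560 to 7441 CPM in treated tumors, highest in A3673. The 6 luminal progenitor and alveolar markers, of which Elf5 and Ehf also stand in the regulator list, summed to 801 to 1194 CPM in saline and 569 to 832 CPM in treated tumors. Of the salivary gland markers, Smgc and Prol1 had no count in any tumor, and Muc19, Bpifa2 and Dcpp1 were at most 0.382 CPM. The other 3 of this list were present, Aqp5, which also stands in the lactose and transport list, at 176 to 781 CPM, Prom2 at 32.3 to 140 CPM and Amy1 at 0.229 to 9.25 CPM, so the 8 markers summed to 318 to 813 CPM in saline and 320 to 652 CPM in treated tumors. Basal markers summed to 969 to 3633 CPM in saline and 304 to 3026 CPM in treated tumors, and hormone-sensing luminal markers, Prlr among them, to 101 to 860 and 133 to 673 CPM. Adipocyte markers summed to 5.90 to 13.7 CPM in 7 tumors, 32.3 in A3688 and 68.2 in C3519. The leukocyte, endothelial and fibroblast marker sums overlapped between saline and treated tumors, and the part of cell mixture in the milk mRNA levels was not tested.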

How the data were processed

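RNA from 9 tumors was sequenced and counted by a service provider for the authors, who deposited raw counts of reads per gene in 1 table, with 1 column a tumor and 0 columns of no sample. The submitters' processing notes name TopHat2, DESeq2 and the build mm10. The counting program, annotation and strand setting are not given in the sources used here. Symbols, positions and transcript lengths came from GENCODE M21 (GRCm38), in which 34490 of the 35275 identifiers were found, and promoter sequences from RefSeq (GRCm38.p6). No 2 columns were identical (0 pairs), and 9792 genes had 0 counts in all tumors.

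Genes were kept by filterByExpr (minimum count 10, minimum total 15), which left 15821, scaled by TMM and fitted with edgeR 4.0.16 in R 4.3.3 (quasi-likelihood test, 1 coefficient a group, all 9 tumors), with Benjamini-Hochberg adjustment over all genes tested and a threshold of 0.05. The SE is the absolute log2 fold change divided by the root of the F statistic. DESeq2 1.42.0 was an alternative, with other normalizations, filters and sample sets. CPM values use TMM-scaled library sizes, RPKM divides them by the longest coding transcript, and correlations used log2 CPM with a prior count of 2. The fit was tested on simulated data. Total counts of 17538380 to 21194980 make 1 count about 0.05 CPM.

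Named were all 9 members, in each list the genes called or else the 3 with the smallest unadjusted p for both treatments together plus Prlr, Stat5a, Stat5b and Elf5, and the 10 genes most like the members. The members and lists were chosen with earlier results of these data known. The fits without A3688 by DESeq2 were added after seeing the data.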

Additional observations from a re-analysis of the deposited data

How the results depend on the processing

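No paired analysis was run, because neither the study's description nor the labels pair tumors between groups. The labels number no replicates, and the numbers used here follow accession order. The DESeq2 fit without A3688, chosen after seeing the data, called 2.0 members lower in i.v. TLZ against saline, in NanoTLZ against saline and in both treatments against saline, where edgeR called 0 and the planned settings other than leaving out a tumor also called 0. With edgeR, leaving out each tumor in turn called 0 members in every comparison, and the median log2 fold change of the members then ran from -2.73 to -0.0063 for i.v. TLZ, from -1.92 to 1.49 for NanoTLZ, from 0.26 to 1.28 between the treatments and from -2.09 to 0.21 for both treatments.

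Leaving out a tumor turned the direction of single members. For i.v. TLZ against saline, the log2 fold changes then ran from -3.68 to 0.97 (Csn1s2a), from -2.76 to 2.06 (Csn2) and from -2.33 to 2.62 (Btn1a1). For NanoTLZ they ran from -1.67 to 1.81 (Csn1s2a), from -2.00 to 2.82 (Csn2), from -3.74 to 1.49 (Lalba), from -4.73 to 0.27 (Glycam1) and from -0.88 to 3.04 (Btn1a1). Between the treatments they ran from -0.36 to 0.84 (Csn1s1), from -0.72 to 0.71 (Csn3), from -3.18 to 1.95 (Glycam1) and from -0.10 to 1.97 (Btn1a1). For both treatments they ran from -2.40 to 1.39 (Csn1s2a), from -2.38 to 2.44 (Csn2), from -5.02 to 0.21 (Lalba), from -3.14 to 0.13 (Glycam1) and from -1.34 to 2.83 (Btn1a1). Against saline, each turn came from leaving out A3673. Of the alternative values, 422 kept their direction and their side of the threshold, 20 turned and 6 passed the threshold, the last being Csn1s1 and Lalba in the DESeq2 fit without A3688. With 3 tumors a group, the saline tumors differed by up to 1643-fold in Csn1s1, and for Wap, Csn1s2b and, outside A3673, Lalba the few counts also limited what could be called.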
